A study of Mus musculus with 10 samples.

Results

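Smad1 and 9 other genes of bone morphogenetic protein (BMP) signalling were followed in hearts of mice with and without an inducible deletion of both sphingosine kinases. The 10 genes are the receptors Bmpr2, Acvrl1 and Eng, the signal carriers Smad1, Smad5 and Smad4, the inhibitory Smads Smad6 and Smad7, and the target genes Id1 and Id3. They are 10 of the 15341 genes in the count table, and all 10 had enough reads to pass the filter on low counts. The set was chosen by the measured counts of these same hearts, because Smad1 differed between the 2 groups. The differences of its members between the groups are therefore given as descriptions. Their intervals and calls come from the fit across all genes, show the size of a difference and its error, and are no independent evidence for it. The question was whether the higher Smad1 mRNA came with higher mRNA of the genes that Smad1 controls.

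The study compared 5 S1Pless hearts with 5 control hearts, all from male mice. S1Pless mice had the genotype Sphk1f/-:Sphk2f/-:Mx1Cre+ and control littermates had Sphk1f/-:Sphk2f/-:Mx1Cre-. Both groups thus carried 1 floxed and 1 null allele of each kinase gene, and only the S1Pless mice carried Cre. Sphk1 and Sphk2 encode the kinases that make the lipid mediator sphingosine 1-phosphate. The Mx1 promoter that drives Cre responds to interferon and is active in blood-forming cells, in endothelium and in other tissues. The deletion was therefore not limited to heart cells, and an effect of Cre or of its induction cannot be told apart from that of the deletion. Neither the ages of the mice nor the schedule of induction is given in the sources used here. RNA came from heart tissue, so more cells of a type and more RNA per cell cannot be told apart in any value below.

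BMP ligands bind a complex of type I and type II receptor kinases, which phosphorylates Smad1, Smad5 and Smad9. The phosphorylated Smads join Smad4, enter the nucleus and switch on genes such as Id1, Id3, Smad6 and Smad7. In endothelial cells the signal runs largely through the type II receptor Bmpr2, the type I receptor Acvrl1 (also called ALK1) and the co-receptor Eng (endoglin), and mutations of these receptors cause human vascular disease. Smad activity depends on phosphorylation, which mRNA counts do not measure.

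Library totals were 16354071 to 20832566 counts in S1Pless hearts and 17204491 to 20202283 counts in control hearts. Levels are CPM, counts scaled to a common library size, after TMM scaling, a correction for the make-up of each library, and 1 count stood for 0.0451 to 0.0658 CPM. Sphk1 was 0.723 ± 0.213 CPM in S1Pless hearts and 1.21 ± 0.357 CPM in control hearts (SD, n = 5 each). Sphk2 was 16.8 ± 1.94 CPM in S1Pless hearts and 20.2 ± 2.30 CPM in control hearts. Both kinases overlapped between the groups and neither passed the test (edgeR adjusted p = 0.168 for Sphk1 and 0.180 for Sphk2), so the targeted genes give only a weak check of the labels in this tissue. Of 12992 genes tested with edgeR's quasi-likelihood test, 442 (3.4%) were called higher and 41 (0.316%) lower in S1Pless hearts at an adjusted p below 0.05. Without any test, the CPM of the 2 groups did not overlap in 588 genes (4.53%) that were higher and 237 genes (1.82%) that were lower in S1Pless hearts.

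By the same 2 rules, 1 of the 10 members, Smad1, was called higher and 0 were called lower, and the CPM did not overlap in 2 members that were higher in S1Pless hearts, Smad1 and Id3. Nothing is read from these counts, because the contrast itself chose the genes. The median log2 fold change of the 10 members was 0.03, beside -0.01 for all tested genes. Smad1 stood at the top of the members at 0.68 and Smad6 at the bottom at -0.24. Among all tested genes, 4.59% had a log2 fold change at least as high as that of Smad1.

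**Figure D1:**
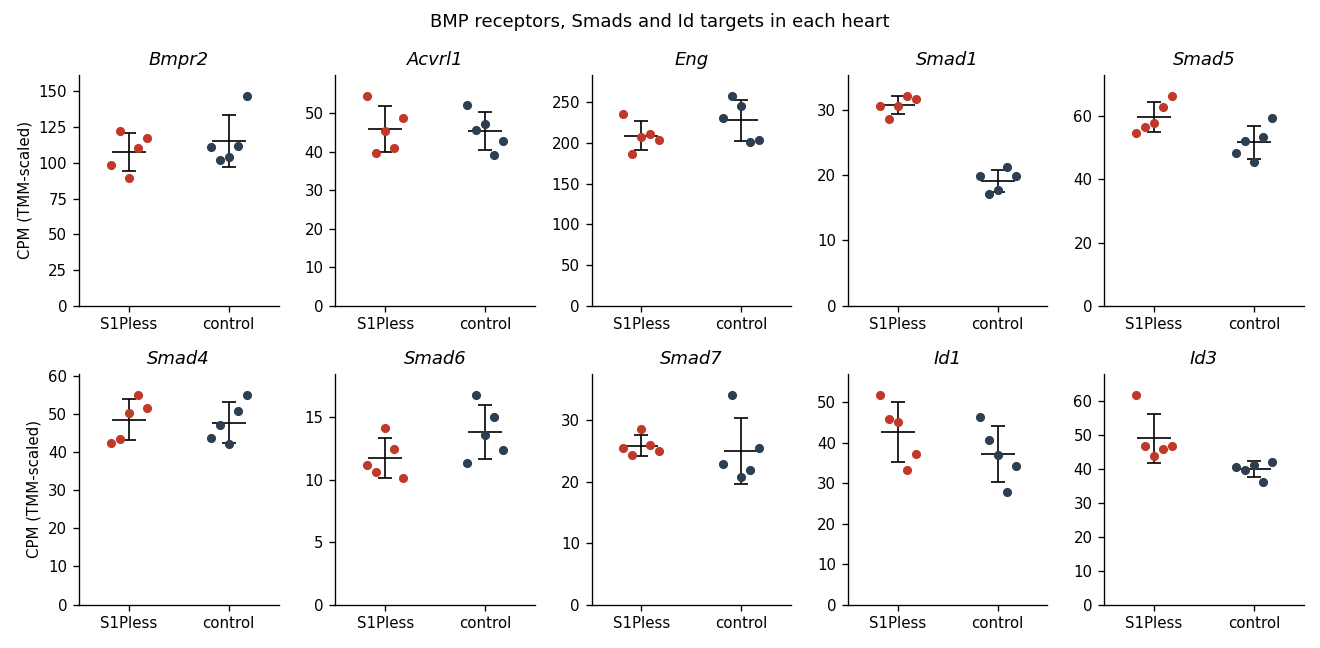
CPM of each of the 10 genes in each heart, with 1 panel per gene, S1Pless hearts on the left and control hearts on the right, and the mean ± SD of 5 hearts drawn over the points. The S1Pless hearts lie between 28.6 and 32.1 CPM for Smad1, above all control hearts, while for 8 genes the points of the groups overlap.

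The receptors differed little between the groups. Bmpr2 (ENSMUSG00000067336), the type II receptor kinase, had 98.8, 122.0, 89.3, 110.3 and 117.4 CPM in S1Pless hearts 1 to 5, against 110.9, 102.2, 104.3, 111.6 and 146.9 CPM in control hearts 1 to 5. The groups overlapped, and control heart 5 was well above every other heart. The fold of S1Pless over control was 0.934, with a 95% interval of 0.782 to 1.12, and without control heart 5 the log2 fold change was 0.0038, beside -0.10 with it.

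Acvrl1 (ENSMUSG00000000530), the type I receptor kinase of endothelium, had 54.5, 39.7, 45.4, 41.0 and 48.6 CPM in S1Pless hearts, against 52.1, 45.6, 47.2, 39.1 and 42.7 CPM in control hearts. The ranges lay almost on top of each other, with a fold of 1.01 (95% interval 0.866 to 1.18). Eng (ENSMUSG00000026814), the co-receptor that presents ligand to Acvrl1, had 235.5, 186.4, 207.8, 211.5 and 203.6 CPM in S1Pless hearts, against 231.1, 258.2, 246.2, 202.0 and 203.5 CPM in control hearts. Its groups overlapped as well. Its fold was 0.916 (95% interval 0.787 to 1.07). Exons of Eng overlap those of Fpgs on the opposite strand, and whether strand was used in the counting is not stated in the labels. Fpgs had 126 to 244 counts per heart, against 3513 to 5218 for Eng. How reads of the shared exons were counted cannot be told from these totals.

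Smad1 (ENSMUSG00000031681) carries the BMP signal from the receptors to the nucleus. It had 30.6, 28.6, 30.5, 32.1 and 31.7 CPM in S1Pless hearts, against 19.9, 17.1, 17.7, 21.2 and 19.8 CPM in control hearts. Every S1Pless heart was above every control heart, and the gap between the groups was wider than the range inside either. The means were 30.7 ± 1.37 CPM in S1Pless hearts and 19.1 ± 1.68 CPM in control hearts (SD, n = 5 each), a log2 fold change of 0.68 ± 0.08 (SE) and a fold of 1.60 (95% interval 1.42 to 1.81). The values rest on 525 to 677 raw counts per S1Pless heart and 302 to 389 per control heart.

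Smad5 (ENSMUSG00000021540) encodes the closest relative of Smad1 and is activated by the same receptors. It had 54.7, 56.7, 57.8, 63.0 and 66.5 CPM in S1Pless hearts, against 48.3, 52.3, 45.5, 53.4 and 59.3 CPM in control hearts. All S1Pless hearts were above 4 of the control hearts, and control heart 5 lay inside the S1Pless range. The log2 fold change was 0.21 ± 0.09 and the fold 1.15 (95% interval 1.01 to 1.32).

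Smad4 (ENSMUSG00000024515) encodes the common partner of all receptor-activated Smads. It had 42.5, 43.4, 50.3, 55.0 and 51.6 CPM in S1Pless hearts, against 43.8, 47.1, 42.2, 50.8 and 55.1 CPM in control hearts. The groups covered the same range. The fold was 1.02 (95% interval 0.875 to 1.18), and the log2 fold change of 0.02 turned to -0.028 when the number in the sample titles (described below) was a term in the fit.

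The log2 fold changes of the 4 target genes ran from -0.24 for Smad6 to 0.29 for Id3. Smad6 (ENSMUSG00000036867), whose product blocks Smad1 activation and whose transcription BMP signalling induces, had 11.1, 10.7, 14.2, 12.5 and 10.1 CPM in S1Pless hearts, against 11.4, 16.8, 13.6, 15.0 and 12.4 CPM in control hearts. The groups overlapped, with 4 S1Pless hearts and 2 control hearts at or below 12.5 CPM. Its log2 fold change was -0.24 ± 0.12, opposite in sign to that of Smad1, and its fold was 0.844 (95% interval 0.702 to 1.02). Smad6 had the fewest reads of the 10 genes, 173 to 313 raw counts per heart.

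Smad7 (ENSMUSG00000025880), the inhibitory Smad that acts on the BMP and the TGF-beta receptors, had 25.5, 24.4, 28.6, 25.9 and 24.9 CPM in S1Pless hearts, against 22.8, 34.1, 20.8, 21.95 and 25.5 CPM in control hearts. The S1Pless hearts lay inside the control range, which was stretched by control heart 2. The fold was 1.03 (95% interval 0.860 to 1.24).

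Id1 (ENSMUSG00000042745), a direct target of phosphorylated Smad1 that encodes an inhibitor of basic helix-loop-helix factors, had 51.9, 45.9, 45.04, 33.4 and 37.1 CPM in S1Pless hearts, against 46.3, 40.8, 37.1, 27.9 and 34.4 CPM in control hearts. The spread inside each group was larger than the difference between the means of 42.7 ± 7.40 CPM in S1Pless hearts and 37.3 ± 6.90 CPM in control hearts. The log2 fold change was 0.20 ± 0.14 and the fold 1.15 (95% interval 0.928 to 1.41).

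Id3 (ENSMUSG00000007872), a relative of Id1 induced in the same way, had 61.8, 46.6, 43.8, 45.9 and 46.7 CPM in S1Pless hearts, against 40.6, 39.7, 41.2, 36.1 and 42.1 CPM in control hearts. The groups did not overlap, but the nearest hearts, at 43.8 CPM in S1Pless and 42.1 CPM in control, were close, and S1Pless heart 1 was far above the other S1Pless hearts. The log2 fold change was 0.29 ± 0.10 and the fold 1.23 (95% interval 1.06 to 1.42). Without S1Pless heart 1 the log2 fold change was 0.20.

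The labels hold a further split. The numbers in the sample titles begin with 38 in 3 S1Pless and 4 control hearts, and with 44 in 2 S1Pless hearts and 1 control heart. What the numbers stand for is not given. The difference in mean log2 CPM of Smad1 was 0.66 among the hearts numbered with 38 and 0.69 among those numbered with 44. For Id3 it was 0.35 and 0.14, for Id1 0.35 and 0.03, and for Smad6 -0.24 and -0.14, in the same order. The comparison among hearts numbered with 44 rests on a single control heart.

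**Figure D2:**
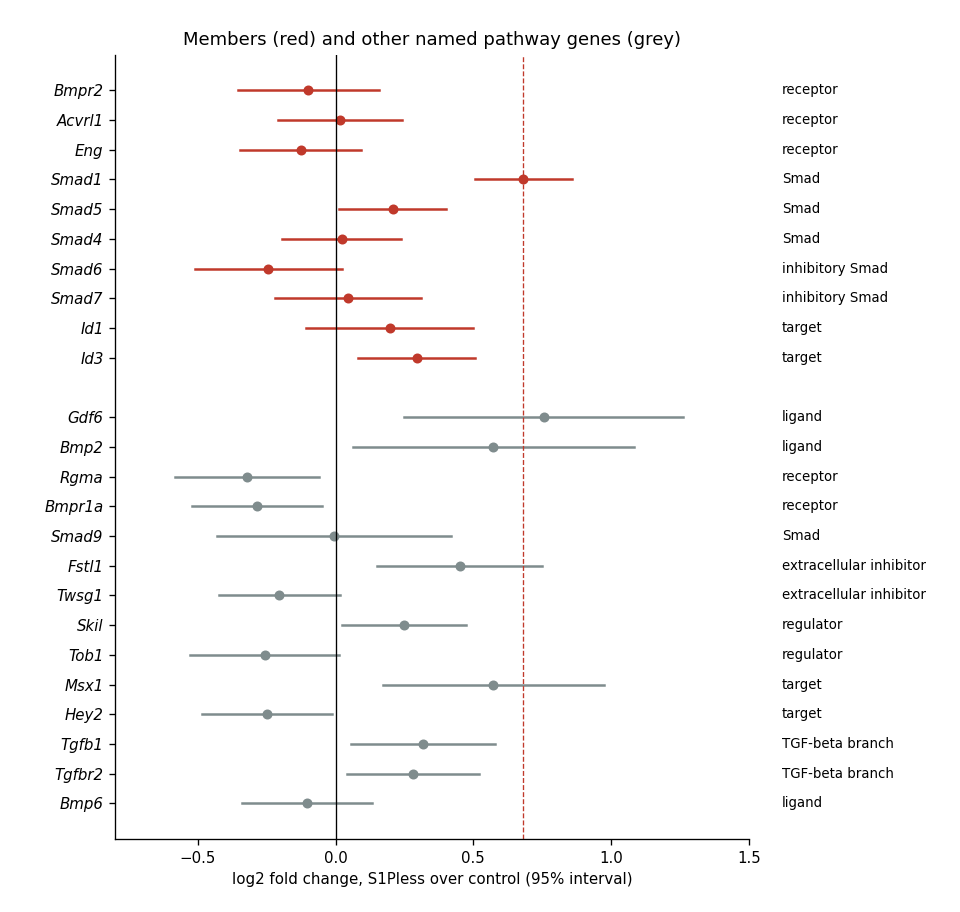
Log2 fold change of S1Pless over control with its 95% interval for the 10 genes (red) and for other named genes of the pathway (grey), with a dashed line at the value of Smad1. Smad1 lies at 0.68, and the target genes Smad6, Smad7, Id1 and Id3 lie between -0.24 and 0.29.

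The start regions of Smad1 and of 2 of its targets are shown so that the letters known for Smad binding can be seen beside the values above. The windows run from 250 bases before to 50 bases after the annotated start and come from RefSeq on build GRCm38.p6. Of the 10 genes, 6 have such a window: Bmpr2, Eng, Smad1, Smad5, Smad6 and Id3. Capitals mark matches on either strand to 4 motifs, which were settled after the windows had been read: GGCGCC and GGAGCC (reverse complement GGCTCC), bound by BMP-activated Smads, and GTCTAGAC and CAGAC (reverse complement GTCTG), bound by Smad4 and the TGF-beta Smads. No 2 of the marked matches overlap. The Smad1 window is chr8:79399379-79399678 on the minus strand, the Smad6 window chr9:64022010-64022309 on the minus strand and the Id3 window chr4:136143572-136143871 on the plus strand. Each is written 5′ to 3′ along its gene.
Smad1: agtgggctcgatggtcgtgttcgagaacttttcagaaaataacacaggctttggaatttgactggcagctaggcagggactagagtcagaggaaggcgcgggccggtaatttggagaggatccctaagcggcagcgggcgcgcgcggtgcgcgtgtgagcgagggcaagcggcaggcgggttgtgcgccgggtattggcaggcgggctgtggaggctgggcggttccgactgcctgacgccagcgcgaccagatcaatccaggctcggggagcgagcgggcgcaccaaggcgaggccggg
Smad6: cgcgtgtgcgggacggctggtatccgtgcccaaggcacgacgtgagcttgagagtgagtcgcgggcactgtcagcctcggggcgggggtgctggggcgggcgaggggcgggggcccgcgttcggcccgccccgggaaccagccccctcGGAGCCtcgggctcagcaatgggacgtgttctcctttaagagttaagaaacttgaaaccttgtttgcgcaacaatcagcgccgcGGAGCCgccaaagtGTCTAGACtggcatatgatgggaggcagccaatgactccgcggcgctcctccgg
Id3: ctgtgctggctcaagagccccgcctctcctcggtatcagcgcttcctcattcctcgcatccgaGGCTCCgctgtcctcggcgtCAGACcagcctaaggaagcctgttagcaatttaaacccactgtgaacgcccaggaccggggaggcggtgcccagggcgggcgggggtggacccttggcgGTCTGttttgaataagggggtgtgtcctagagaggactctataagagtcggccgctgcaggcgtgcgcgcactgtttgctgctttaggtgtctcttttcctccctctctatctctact

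The Smad1 window is 65.0% G and C and holds none of the 4 motifs. The Smad6 window is 66.3% G and C and holds GGAGCC with its first base at -102 and again at -18, counted from the first transcribed base as +1, and GTCTAGAC at -4. The Id3 window is 60.0% G and C and holds GGCTCC at -187, CAGAC at -167 and GTCTG at -68. Among 32851 RefSeq windows of the same length, GGAGCC or GGCTCC is found in 30.8%, CAGAC or GTCTG in 49.6%, GGCGCC in 11.9% and GTCTAGAC in 0.213%, which is 70 windows. Windows of receptor and Smad genes held matches as well: 2 of CAGAC or GTCTG for Eng and 1 of GGCGCC for Bmpr2. Smad5 has 3 windows, of which 2 held 1 GGCGCC each and the other held 1 GGAGCC or GGCTCC and 1 CAGAC or GTCTG. Matches were thus not limited to the target genes, and a match is a description of the letters and not a binding site.

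Levels of different genes can be set side by side only per length of transcript, given here as CPM per kilobase of annotated exon. On that scale control hearts ran, from high to low, Eng at 56.4 ± 6.22, Id1 at 32.1 ± 5.95, Id3 at 22.3 ± 1.30, Smad4 at 12.9 ± 1.42, Acvrl1 at 10.6 ± 1.14, Smad5 at 6.97 ± 0.709, Bmpr2 at 6.40 ± 1.01, Smad7 at 5.54 ± 1.19, Smad6 at 4.32 ± 0.671 and Smad1 at 3.06 ± 0.269 (SD, n = 5). Neighbours in that order whose control hearts overlapped were Smad4 with Acvrl1, Smad5 with Bmpr2, Bmpr2 with Smad7, and Smad7 with Smad6. Smad1 was thus the lowest of the 10 genes in control hearts. In S1Pless hearts Smad1 was at 4.90 ± 0.219 and Smad6, the lowest there, at 3.66 ± 0.506.

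**Figure D3:**
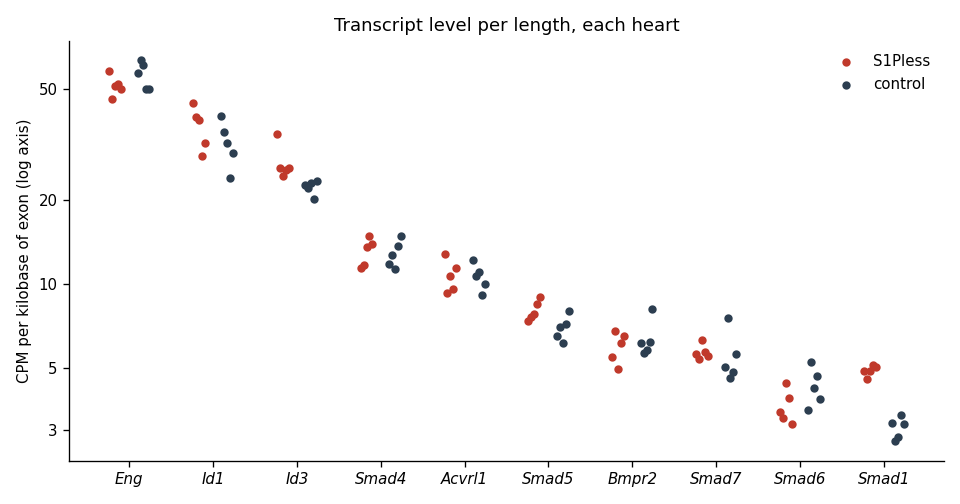
CPM per kilobase of exon on a log axis for each heart, with genes ordered by their mean in control hearts. Smad1 is lowest in control hearts at 3.06 on average and lies above Smad6 in every S1Pless heart, at 4.90 against 3.66 on average.

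Ratios inside a heart do not depend on how libraries are scaled. Smad1 made up 34.3 to 38.1% of the summed Smad1, Smad5 and Smad9 level per kilobase in S1Pless hearts, against 26.2 to 31.1% in control hearts, with no overlap. The level of Smad1 relative to Smad5 was 0.610 ± 0.0360 in S1Pless hearts and 0.440 ± 0.0458 in control hearts. Smad6 relative to Smad1 was 0.626 to 0.908 in S1Pless hearts, against 1.12 to 1.92 in control hearts. Per kilobase, the inhibitory Smad was below Smad1 in every S1Pless heart and above it in every control heart. Which gene was higher depends on the exon lengths used, 6.262 kb for Smad1 and 3.205 kb for Smad6. In CPM, Smad6 was below Smad1 in every heart. All these ratios contain Smad1, whose difference chose the genes, so they are no separate evidence. Id1 relative to Smad1 was 5.61 to 9.17 in S1Pless hearts, against 7.11 to 12.9 in control hearts, and these ranges overlapped.

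The wider BMP pathway was read from a list of 66 further genes, of which 49 were tested. edgeR called 0 of them higher and 0 lower, beside 3.4% and 0.316% of all tested genes. At an unadjusted p below 0.05 there were 5 higher and 5 lower, beside 13.0% and 6.82% of all tested genes. DESeq2 called 1 higher and 0 lower, beside 764 higher and 264 lower among all genes. The median log2 fold change was -0.0026, with 24 genes above 0 and 25 below, beside -0.01 for all tested genes. The genes named below are, for each role, the 2 with the lowest p, and their adjusted p-values are from edgeR's quasi-likelihood test.

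Among the ligands 6 of 13 were tested, with a median log2 fold change of 0.08. Gdf6, a BMP ligand with few counts here, was 1.80 ± 0.465 CPM in S1Pless hearts and 1.07 ± 0.217 CPM in control hearts, with an adjusted p of 0.0930. Bmp2, which signals through Bmpr2, was 2.40 ± 0.740 CPM in S1Pless hearts and 1.60 ± 0.290 CPM in control hearts, with an adjusted p of 0.199. Bmp6, named after its values were seen as the tested ligand with the most CPM, was 47.8 ± 4.44 CPM in S1Pless hearts and 51.3 ± 8.42 CPM in control hearts, with an adjusted p of 0.641. No ligand tested passed. Bmp10 and Gdf2, the ligands with the highest affinity for Acvrl1, were not found by symbol among the counted genes and could not be analysed.

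Among the other receptors and co-receptors 7 of 9 were tested, with a median log2 fold change of -0.12. Rgma, a BMP co-receptor, was 36.3 ± 5.92 CPM in S1Pless hearts and 45.3 ± 5.28 CPM in control hearts, a log2 fold change of -0.32 ± 0.12 with an adjusted p of 0.164. Bmpr1a, the widely expressed type I receptor, was 64.3 ± 4.68 CPM in S1Pless hearts and 78.3 ± 12.6 CPM in control hearts, a log2 fold change of -0.28 ± 0.11 with an adjusted p of 0.172. Both values were on the lower side and neither passed. Smad9, the remaining BMP-activated Smad, was 3.74 ± 0.881 CPM in S1Pless hearts and 3.75 ± 0.900 CPM in control hearts, with an adjusted p of 0.990.

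Of 16 secreted or extracellular regulators 9 were tested. Fstl1, a secreted glycoprotein that can bind BMPs, was 102 ± 23.9 CPM in S1Pless hearts and 74.6 ± 8.86 CPM in control hearts, a log2 fold change of 0.45 ± 0.14 with an adjusted p of 0.0906. It was the gene that DESeq2 called, at an adjusted p of 0.0430. Twsg1, which binds BMPs together with chordin, was 78.3 ± 5.36 CPM in S1Pless hearts and 90.1 ± 12.8 CPM in control hearts, with an adjusted p of 0.292. All 16 intracellular regulators were tested, with a median log2 fold change of -0.04. The 2 named of these are Skil (SnoN), a repressor of Smad transcription, with an adjusted p of 0.204, and Tob1, an inhibitor of BMP Smads in mouse bone cells, with an adjusted p of 0.275. Skil was 26.4 ± 2.25 CPM in S1Pless hearts and 22.2 ± 3.24 CPM in control hearts. Tob1 was 47.8 ± 8.31 CPM in S1Pless hearts and 57.1 ± 7.76 CPM in control hearts.

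Of 11 further target genes of BMP signalling 10 were tested, with a median log2 fold change of 0.06 and 5 on each side of 0. Msx1, a homeobox gene induced by BMPs, was 4.83 ± 1.21 CPM in S1Pless hearts and 3.25 ± 0.456 CPM in control hearts, a log2 fold change of 0.57 ± 0.19 with an adjusted p of 0.105. Without S1Pless heart 3 its adjusted p was 0.0358. Hey2, a Notch and BMP target that encodes a transcriptional repressor, was 6.30 ± 0.239 CPM in S1Pless hearts and 7.50 ± 0.848 CPM in control hearts, with an adjusted p of 0.226. No target outside the member set passed with all hearts, where 3.4% of all tested genes were called higher and 0.316% lower. With 10 genes tested, 0 calls lie near those shares, so nothing is read from them.

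The neighbouring TGF-beta branch shares Smad4 and Smad7 with BMP signalling and runs through Smad2 and Smad3. Of 18 such genes 17 were tested, and edgeR called 0 higher and 0 lower, beside 3.4% and 0.316% of all tested genes. At an unadjusted p below 0.05 there were 3 higher and 0 lower, beside 13.0% and 6.82% of all tested genes. DESeq2 also called 0 in either direction, beside 764 higher and 264 lower among all genes. The ligand gene Tgfb1 was 36.8 ± 5.98 CPM in S1Pless hearts and 29.6 ± 4.01 CPM in control hearts, with an adjusted p of 0.167. The receptor gene Tgfbr2 was 88.2 ± 15.4 CPM in S1Pless hearts and 72.6 ± 5.74 CPM in control hearts, with an adjusted p of 0.183. The median log2 fold change of the branch was 0.08.

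Markers of several cell types differed between the groups, and their part in the Smad1 difference was not tested. All 18 endothelial markers were tested and none was at 0. Their summed level was 1910 to 2262 CPM in S1Pless hearts, against 1850 to 2064 CPM in control hearts. The median log2 fold change was 0.23. The CPM of the groups did not overlap in 4 of the 18 on the higher side and 1 on the lower side, beside 4.53% and 1.82% of all tested genes. edgeR called 2 of the 18 higher and 0 lower, beside 3.4% and 0.316% of all tested genes. The 2 were Rasip1 (71.4 ± 7.55 CPM in S1Pless hearts and 53.2 ± 3.26 CPM in control hearts) and Erg (52.0 ± 5.06 CPM in S1Pless hearts and 39.9 ± 3.47 CPM in control hearts). With 1 heart left out, Rasip1 passed in 8 of 10 fits and Erg in 3 of 10. The endothelial markers did not all differ in the same direction, with 14 log2 fold changes above 0 and 4 below. The 4 were Kdr at -0.23, Flt1 at -0.23, Emcn at -0.12 and Vwf at -0.06, and Flt1 was the marker without overlap on the lower side. The sum of 15 macrophage markers was 578 to 1390.4 CPM in S1Pless hearts, against 365 to 473 CPM in control hearts, with a median log2 fold change of 0.87. The 12 fibroblast markers summed to 2699 to 3469 CPM in S1Pless hearts, against 2096 to 2896 CPM in control hearts, and these sums overlapped. Their mean log2 CPM did not overlap, at 6.66 to 7.13 in S1Pless hearts, against 6.37 to 6.60 in control hearts. The 12 cardiomyocyte markers summed to 65568 to 76346 CPM in S1Pless hearts, against 80816 to 86366 CPM in control hearts, with no overlap. No defining marker of a heart cell type was at 0, but each had passed the filter on low counts, so this does not check the tissue label. The high cardiomyocyte sums go with heart tissue.

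Lymphatic markers, 7 genes, summed to 161 to 209 CPM in S1Pless hearts, against 129.96 to 171 CPM in control hearts. Blood markers, also 7 genes, summed to 84.7 to 179 CPM in S1Pless hearts, against 39.8 to 153 CPM in control hearts. The 10 markers of smooth muscle and pericytes summed to 1692 to 1959 CPM in S1Pless hearts, against 1721 to 1941 CPM in control hearts. These 3 sums overlapped between the groups. The mean log2 CPM of the 7 lymphatic markers, in which each gene counts alike, did not overlap, at 4.03 to 4.66 in S1Pless hearts, against 3.59 to 3.96 in control hearts. edgeR called 2 fibroblast, 7 macrophage and 4 lymphatic markers higher and none lower in any of the 7 lists. Of all tested genes it called 3.4% higher and 0.316% lower. Leaving out 1 heart gave 0 to 2 fibroblast calls (0 without S1Pless heart 5), 2 to 10 macrophage calls (2 without control heart 2) and 0 to 4 lymphatic calls (0 without control heart 3). Cardiomyocyte, muscle and blood markers had 0 calls by edgeR. At an unadjusted p below 0.05 there was 1 lower cardiomyocyte marker, 1 higher and 1 lower muscle and pericyte marker, and 1 higher blood marker. By that rule 9 endothelial, 6 fibroblast, 15 macrophage and 5 lymphatic markers were higher. On the lower side were 1 endothelial and 1 lymphatic marker, the latter Prox1 at a log2 fold change of -0.34. Among all tested genes, 13.0% were higher and 6.82% lower by that rule. DESeq2 called 4 endothelial, 6 fibroblast, 12 macrophage and 4 lymphatic markers higher. It called 1 endothelial and 1 cardiomyocyte marker lower. Of all genes, DESeq2 called 764 higher and 264 lower. Leaving out 1 heart gave 0 to 1 blood calls by edgeR.

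Levels were also set against the endothelial markers of the same heart. These markers differed in both directions between the groups, with 14 log2 fold changes above 0 and 4 below. The log2 CPM of Smad1 minus the mean log2 CPM of the 18 endothelial markers was -1.41 to -1.25 in S1Pless hearts, against -1.94 to -1.56 in control hearts, with no overlap. The means were -1.30 ± 0.07 in S1Pless hearts and -1.80 ± 0.16 in control hearts (SD, n = 5 each). For Id1 the same value was -0.84 ± 0.27 in S1Pless hearts and -0.85 ± 0.22 in control hearts. For Id3 it was -0.63 ± 0.16 in S1Pless hearts and -0.74 ± 0.07 in control hearts, and the groups overlapped. Id3, whose CPM did not overlap, thus overlapped on this scale.

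**Figure D4:**
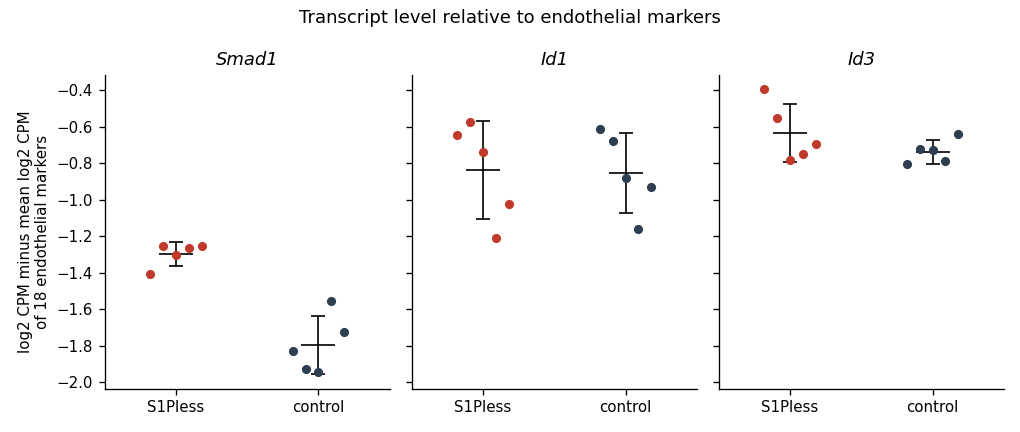
Log2 CPM of Smad1, Id1 and Id3 in each heart minus the mean log2 CPM of 18 endothelial markers in the same heart, S1Pless on the left and control on the right of each panel. Smad1 lies between -1.41 and -1.25 in S1Pless hearts, above all control hearts, and the groups overlap for Id1 and Id3.

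Whether hearts with more Smad1 also had more of its targets was asked inside the groups, which the choice of genes did not use. Each heart's log2 CPM was taken as its deviation from its own group's mean, and the deviations of 10 hearts were compared, with p-values from all 14400 rearrangements of hearts inside the groups. The family held 58 relations, and 0 passed an adjusted p of 0.05 by Pearson's r. There were 8 relations at an unadjusted p below 0.05, and none of the 13 that involve Smad1 was among them. The smallest p that the design can give is 6.94e-05. Smad1 itself varied little inside the groups. On the log2 scale its deviations were -0.10 to 0.07 in S1Pless hearts and -0.16 to 0.15 in control hearts. They rest on 302 to 677 raw counts and include counting error, so a relation with the targets could be missed. No conclusion is drawn from its absence.

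Smad1 and Id1 had r = -0.54 (exact permutation p = 0.137, adjusted p = 0.526) and rho = -0.49 (p = 0.208, adjusted p = 0.513). Smad1 and Id3 had r = -0.18 (exact permutation p = 0.526, adjusted p = 0.702) and rho = -0.22 (p = 0.538, adjusted p = 0.726). Without control hearts 2 and 4, the hearts with the most extreme Smad1 deviations, r was -0.29 for Id1 and -0.03 for Id3. Neither relation passed, and both signs were negative.

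Smad1 and Smad6 had r = -0.24 (exact permutation p = 0.558, adjusted p = 0.702) and rho = -0.28 (p = 0.489, adjusted p = 0.701), and r was -0.15 without those 2 hearts. Smad1 and Smad7 had r = -0.42 (exact permutation p = 0.416, adjusted p = 0.689) and rho = -0.24 (p = 0.576, adjusted p = 0.760), and r turned to 0.48 without them. Control heart 2 decided the sign for Smad7: r was 0.32 without it alone and -0.31 without control heart 4 alone.

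Smad1 with its partners gave positive values that did not pass. With Smad4, r was 0.55 (exact permutation p = 0.121, adjusted p = 0.499), rho was 0.55 (p = 0.119, adjusted p = 0.513) and r without the 2 hearts was 0.68. With Smad5, r was 0.46 (exact permutation p = 0.244, adjusted p = 0.590), rho was 0.45 (p = 0.249, adjusted p = 0.534) and r without them was 0.67. Smad1 with the marker scores of endothelium, fibroblasts, macrophages and cardiomyocytes ranged from r = -0.28 to 0.10.

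The relation nearest to the threshold was that of Smad5 and Smad4, with r = 0.90 (exact permutation p = 0.00222, adjusted p = 0.129). By rank it was rho = 0.95 (p = 0.000486, adjusted p = 0.0282), the 1 relation of the 58 that passed by rho. Without control hearts 3 and 5 its r was 0.84, and without S1Pless heart 4 or without S1Pless heart 5 it passed by r, each at an adjusted p of 0.0201. The 3 hearts whose title numbers begin with 44 (S1Pless hearts 4 and 5 and control heart 5) were above their group's mean for both genes, by 0.08, 0.16 and 0.20 for Smad5 and by 0.19, 0.10 and 0.21 for Smad4 on the log2 scale. With the means of the title series also removed, r of Smad5 and Smad4 was 0.73. Hearts could then be rearranged only inside each group and title series, where control heart 5 stands alone. That leaves far fewer rearrangements than 14400, so a pass was hardly possible and no conclusion is drawn from the lack of one. Acvrl1 and the endothelial score had r = 0.83 (exact permutation p = 0.00701, adjusted p = 0.203) and rho = 0.81 (p = 0.00979, adjusted p = 0.284), with r = 0.72 without S1Pless heart 1 and control heart 4. The relation of Acvrl1 with the endothelial markers did not pass by either measure.

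**Figure D5:**
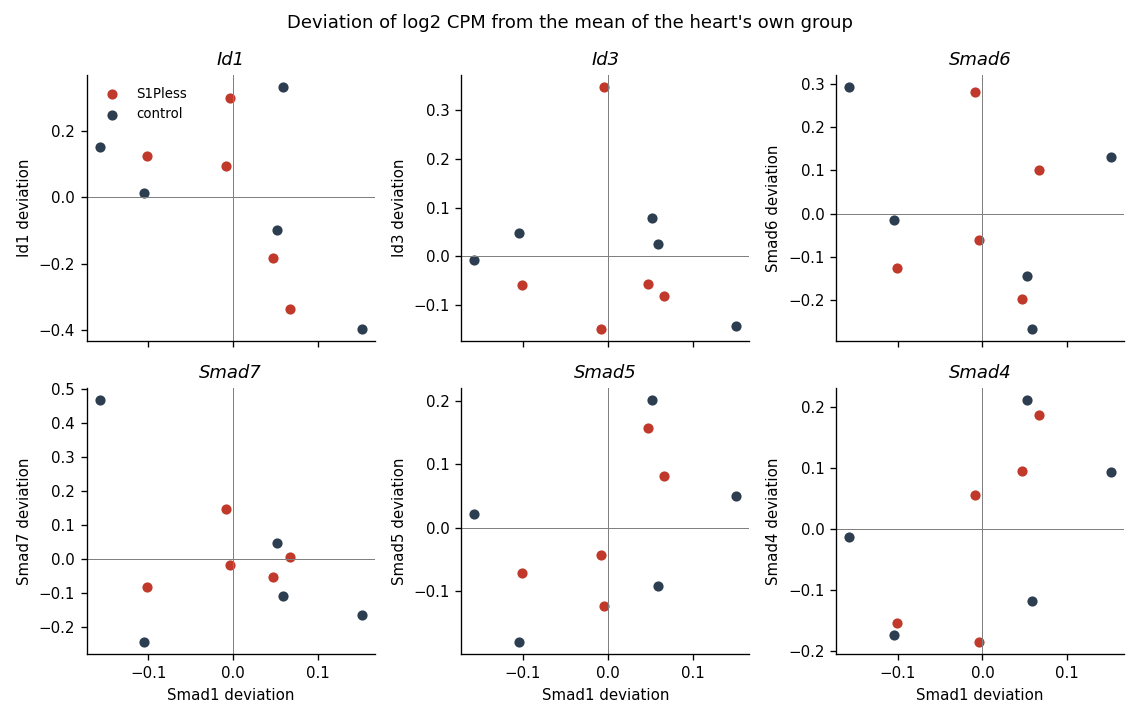
Deviation of log2 CPM from the group mean in each of 10 hearts, Smad1 on the horizontal axis and Id1, Id3, Smad6, Smad7, Smad5 or Smad4 on the vertical axis of the 6 panels, with S1Pless and control hearts in different colours. The points slope downward for Id1 (r = -0.54) and upward for Smad4 (r = 0.55), and none of the 6 relations passed the test.

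Genes that followed Smad1 most closely inside the groups were ranked by Pearson's r over 10 hearts, among the 10234 genes averaging 5 CPM or more. The top 5 were Kmt5b at 0.93, Ddx46 at 0.93, Fbxl20 at 0.92, Plod2 at 0.92 and Chd1 at 0.91. None of these 5 was called between the groups, and the CPM of the groups overlapped in each. In the same ranking Smad4 was 667th, Smad5 1150th, Bmpr2 2597th, Acvrl1 6669th, Id3 7014th, Smad6 7560th, Smad7 9135th, Eng 9613th and Id1 9743rd. With all hearts and TMM scaling, the target genes stood in the lower part of the ranking. Their places are not stable: r with Smad7 was 0.48 without control hearts 2 and 4. With library totals, r with Id3, Smad6 and Smad7 changed sign. The top 5 are the highest of 10234 values over 10 hearts, and no rank was tested.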

How the data were processed

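RNA of 10 mouse hearts was sequenced. Per the labels' protocols, extraction used TRIzol followed by RNeasy, and the library kit was the Illumina Stranded mRNA one. Per the submitters' processing notes, STAR 2.7.8a, featureCounts 2.0.1 and build GRCm39 were used, and the authors deposited raw counts for 15341 genes. Neither the strand setting nor the annotation release is given in the sources used here. Symbols matched 15321 gene IDs.

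The counts were scaled by TMM (factors 0.996 to 1.08 in S1Pless and 0.884 to 1.00 in control hearts). After filterByExpr with a minimum count of 10, 12992 genes were fitted on all 10 hearts with edgeR 4.0.16 (robust quasi-likelihood, R 4.3.3), Benjamini-Hochberg adjustment and a threshold of 0.05. The procedure was tested on simulated data. The biological coefficient of variation was 15.2%. Log2 CPM used a prior count of 2. Exon lengths are GENCODE M21 unions on GRCm38, used only for length. No pair of hearts of a group agreed within sampling noise, so none was a duplicate. That the hearts are separate animals is read from the labels.

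Alternatives were DESeq2 1.42.0, limma 3.58.1 (voom with quality weights), library totals without TMM, other filters and prior counts, the title series as a covariate, and each heart left out in turn. Named genes outside the members are those past the threshold or, where none passed, the 2 with the lowest p per list, up to 2 called markers, and the 5 most like Smad1. The members and lists were chosen with earlier results of these data known.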

Additional observations from a re-analysis of the deposited data

Results flagged for a closer look

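Among 48 groups of 5 hearts (the 10 members, 7 marker sums and 7 ratios or differences between genes, in each genotype), 3 had a heart whose distance to its nearest neighbour exceeded 0.71 of the group's range, and chance alone marks about 1 in 20 groups. Id3 was 61.8 CPM in S1Pless replicate 1, the highest of its group. Bmpr2 was 146.9 CPM in control replicate 5, the highest of its group. The summed macrophage markers were 1390.4 CPM in S1Pless replicate 5, the highest of its group. None of the 3 concerned Smad1.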

How the results depend on the processing

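No paired analysis was possible because the labels give the groups no shared replicate numbers, and hearts were numbered in accession order. The log2 fold change of Smad1, which chose the genes, was 0.65 to 0.72 when 1 heart was left out. With library totals in place of TMM, which moved log2 fold changes by a median of 0.14, there were 1420 genes called higher and 13 lower, 2 members higher (Smad1, and Id3 at 0.43), 4 pathway genes higher (Fstl1, Skil, Gdf6 and Msx1), 1 TGF-beta gene higher (Tgfb1) and 1 relation between members (Smad5 with Smad4). The same scaling gave log2 fold changes of 0.035 for Bmpr2, 0.011 for Eng, 0.12 for Smad9 and 0.035 for Bmp6, and r of Smad1 of 0.20 with Smad6, 0.054 with Smad7 and 0.061 with Id3. DESeq2 called 764 genes higher and 264 lower, with 1 pathway gene higher. Smad4 was -0.0029 with voom and -0.028 with the title series as a covariate. Leaving out 1 heart gave 118 to 504 genes higher (118 without control replicate 3, 122 without control replicate 4) and 8 to 85 lower, 0 to 1 pathway genes higher and 0 to 1 relations. Log2 fold changes then ranged from -0.053 to 0.064 for Acvrl1, -0.15 to 0.00054 for Bmp6, -0.15 to 0.0038 for Bmpr2, -0.022 to 0.078 for Smad4, -0.016 to 0.19 for Smad7 and -0.15 to 0.13 for Smad9. r of Smad1 ranged from -0.38 to 0.052 with Id3, -0.49 to 0.16 with Smad6 and -0.75 to 0.32 with Smad7. The causes were not tested. Of 584 recomputed values of named genes and relations, 545 kept direction and call, 11 newly passed and 28 changed sign. With 5 hearts a group, 173 to 313 counts of Smad6 and intervals of Id1 up to 1.41-fold limit what smaller changes of the targets could be seen.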
